A study of Rattus norvegicus with 30 samples.

Results

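The levels of 10 genes of type 2 alveolar epithelial cells were followed in RNA from rat lung cells sorted for CD31, an adhesion molecule on the surface of endothelium. The genes were taken by gene name and are Sftpc, Sftpb, Sftpa1, Sftpd, Lamp3, Abca3, Napsa, Slc34a2, Lyz2 and Etv5. All 10 were found among the 30562 rows of the deposited table, 1 row each, and all 10 were among the 16171 genes abundant enough to be tested.

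The rats were wild-type and were studied 3 weeks after a sham operation or a Glenn operation, in which the pulmonary artery is fed from a caval vein so that hepatic venous blood is kept from that lung. Each arm was split over a control diet, a diet deficient in vitamin A and a diet with vitamin A in excess, which gave 6 groups of 5 libraries. Cells were bound to CD31 microbeads, and RNA went into a low-input SMART-Seq library. The labels give no strain, age or number of animals, so p-values measure the spread between these samples, which may be technical.

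Type 2 alveolar cells make pulmonary surfactant, the film of lipid and protein that keeps air spaces from collapsing, and they renew the alveolar epithelium. They process surfactant proteins on their way to lamellar bodies, lipid-filled storage organelles that fuse with the apical membrane. These cells are not a target of CD31 sorting, and the 10 genes are usually read as markers of the epithelium that surrounds lung capillaries.

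Libraries held 22.03 to 77.6 M estimated counts (median 39.97 M). Together the 10 genes accounted for 3.52% to 8.50% of the counts in a library, with a median of 6.44% after sham and 4.43% after Glenn surgery, and none of the 10 was at 0 in any library. Every library held the endothelial genes Pecam1 and Cdh5, at 863 to 1731 and 1557 to 2926 CPM (counts scaled to library size with TMM factors). Ptprc, a leukocyte gene, was between 0.569 and 18.9 CPM. Epcam, a surface protein of epithelial cells, was between 90.0 and 205 CPM, so the sorted cells carried other epithelial RNA too. Libraries came in a series A (22) and a series B (8) by library number, and RT1-CE16, a major histocompatibility gene, was low in 17 and high in 13 of them. Glenn control held series A libraries alone, as did sham control and sham excess, and sham excess held no RT1-CE16-high library.

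The sequence just upstream of a gene's start is where lung factors such as NKX2-1, the master regulator of lung epithelium, bind. RefSeq's rat table (GRCr8) held this sequence for 7 of the 10 genes, and the 250 bases before each start were searched on both strands for GCNCTNNAG, a form of the NKX2-1 motif. It was found in 3 of the 7 (Sftpb, Sftpa1 and Slc34a2) and in 13.7% of all 33469 windows of that length. The 3 windows follow, 5′ to 3′ on the gene's strand, with the motif in capitals, because they show how differently placed the same letters are in genes that varied together between libraries.
Sftpb (chr4:105917338-105917587, plus strand): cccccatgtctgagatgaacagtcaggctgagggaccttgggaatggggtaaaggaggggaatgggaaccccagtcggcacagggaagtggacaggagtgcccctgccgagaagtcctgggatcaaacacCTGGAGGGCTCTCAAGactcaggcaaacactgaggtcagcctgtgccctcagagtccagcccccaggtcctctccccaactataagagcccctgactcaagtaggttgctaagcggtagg
Sftpa1 (chr16:17042014-17042263, plus strand): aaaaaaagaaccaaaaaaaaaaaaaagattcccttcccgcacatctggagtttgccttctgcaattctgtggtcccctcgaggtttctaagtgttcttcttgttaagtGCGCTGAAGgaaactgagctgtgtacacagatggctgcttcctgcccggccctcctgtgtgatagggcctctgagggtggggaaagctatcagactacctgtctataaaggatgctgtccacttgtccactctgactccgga
Slc34a2 (chr14:62143073-62143322, minus strand): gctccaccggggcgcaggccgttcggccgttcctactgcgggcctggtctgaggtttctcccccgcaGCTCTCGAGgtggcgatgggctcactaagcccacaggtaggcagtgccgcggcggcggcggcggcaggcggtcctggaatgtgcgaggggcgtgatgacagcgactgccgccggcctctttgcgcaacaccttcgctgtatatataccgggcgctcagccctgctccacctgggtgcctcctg
In Sftpb the motif was found at bases -120 to -112 and again at -113 to -105 on the other strand, the matches sharing bases. In Sftpa1 it lay at -142 to -134 and in Slc34a2 at -183 to -175, where -1 is the base before the start. The forkhead motif TGTTTGC lay at -98 to -92 of Sftpb, next to the NKX2-1 matches, and in 4.16% of all windows. TGTTTAC, another forkhead form, was in Etv5 alone of the 7 (3.21% of all windows). The C/EBP motif TTNNGNAA was in 4 of the 7 (Sftpa1, Lamp3, Slc34a2 and Lyz2) and in 37.2% of all windows. A match is a description of the letters and not a binding site.

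Averaged over the 3 diets, all 10 genes were lower after Glenn than after sham surgery (edgeR quasi-likelihood test, adjusted p under 0.05, over all 16171 genes). Of all genes tested, 24.7% were lower by that rule and 48.2% changed in either direction. Fold changes lay between 0.675 (Sftpb) and 0.798 (Sftpa1). The median log2 change of the 10 was -0.44, against -0.01 over all genes tested. In bulk samples of sorted cells such as these, fewer type 2 cells, less RNA per cell and less carried-over epithelial RNA cannot be told apart. The 15 sham and 15 Glenn libraries overlapped for each of the 10 genes, and 2.73% of all genes were lower with no overlap.

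**Figure D1:**
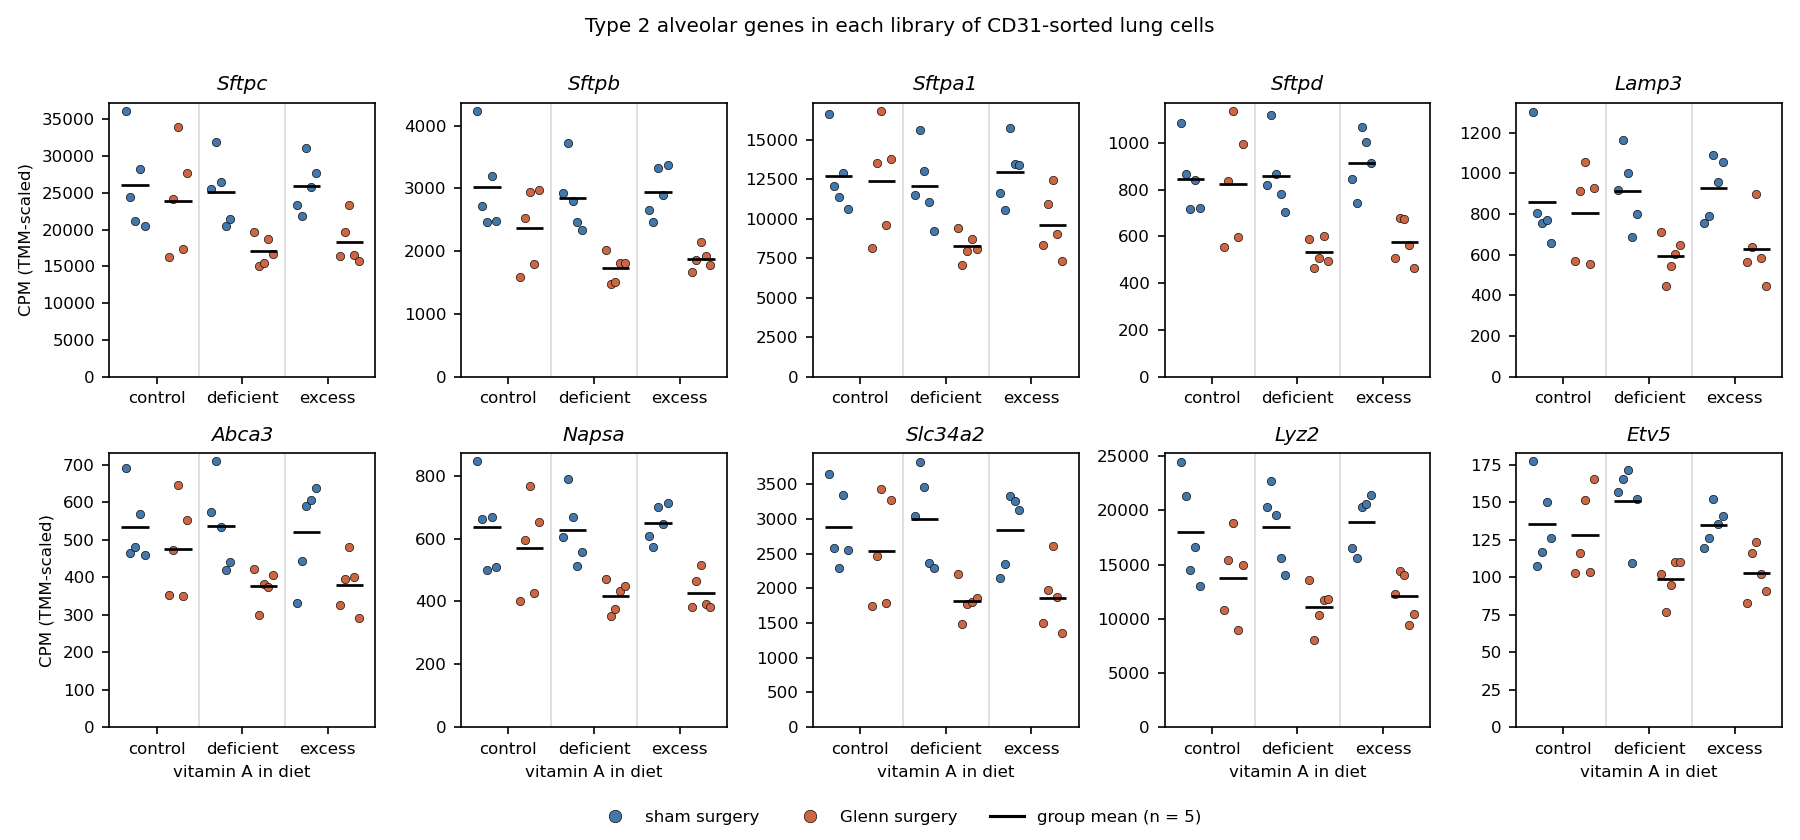
Level of each of the 10 genes (vertical axis, CPM scaled by TMM factors, from 0) in all 30 libraries, by diet (horizontal axis) and surgery (colour). Points are libraries and the short line is the mean of a group of 5; Glenn points lie mostly below sham points on the deficient and excess diets and spread over the sham range on the control diet.

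Sftpc encodes surfactant protein C, a small hydrophobic protein made by type 2 cells. On the control diet Sftpc stood at 36185, 24499, 21224, 28204 and 20479 CPM in sham replicates 1 to 5 and at 16247, 24204, 33951, 17375 and 27675 CPM in Glenn replicates 1 to 5. On the deficient diet it was 25533, 31968, 26403, 20544 and 21434 CPM in the sham libraries and 19706, 15062, 15388, 18660 and 16664 CPM in the Glenn libraries. On the excess diet the values were 23403, 21821, 31040, 25747 and 27713 CPM in the sham libraries and 16362, 19724, 23343, 16563 and 15688 CPM in the Glenn libraries. Glenn control fell into low libraries (replicates 1 and 4) and libraries above the sham median (replicates 3 and 5), with replicate 2 between them. On the deficient diet every Glenn library lay below every sham library, and on the excess diet only Glenn replicate 3 reached into the sham range. Averaged over diets, Sftpc fell by 0.38 on the log2 scale (SE 0.11, edgeR adjusted p 0.00356).

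Sftpb encodes surfactant protein B, which is needed for the surfactant film and for lamellar bodies to form. In sham control the 5 libraries held 4227, 2721, 2472, 3204 and 2475 CPM of Sftpb, and in Glenn control 1585, 2529, 2938, 1791 and 2972 CPM. In sham deficient they held 2930, 3724, 2792, 2457 and 2341 CPM, and in Glenn deficient 2013, 1484, 1515, 1805 and 1814 CPM. In sham excess the values were 2652, 2469, 3318, 2896 and 3376 CPM, and in Glenn excess 1675, 1859, 2145, 1923 and 1785 CPM. Every Glenn library of the deficient and the excess diet lay below every sham library of its diet, while Glenn and sham overlapped on the control diet. Sftpb had the largest fall of the 10 (log2 change -0.57, SE 0.10, edgeR adjusted p 2.17e-05).

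Sftpa1 and Sftpd encode surfactant proteins A and D, collectins that bind microbes in the airspace. Their genes lie on chromosome 16 of GRCr8 with 3 annotated genes between them, among them Mbl1, a serum collectin gene and the one protein-coding gene of the 3. Sftpd held 1087, 865, 715, 839 and 720 CPM in sham control and 552, 836, 1137, 598 and 993 CPM in Glenn control. It held 818, 1118, 867, 779 and 702 CPM in sham deficient and 591, 464, 509, 602 and 496 CPM in Glenn deficient. It held 847, 744, 1066, 1003 and 914 CPM in sham excess and 506, 677, 675, 562 and 466 CPM in Glenn excess. As with Sftpb, the groups were apart on the deficient and excess diets, and on the control diet Glenn replicate 3 was above every sham library. Averaged over diets, Sftpd fell by 0.45 on the log2 scale (SE 0.10, edgeR adjusted p 0.000411). Sftpa1 ranged from 9229 to 16648 CPM after sham (median 12071) and from 7105 to 16874 CPM after Glenn surgery (median 9070). It had the smallest fall of the 10 (log2 change -0.33, SE 0.10, edgeR adjusted p 0.00985).

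Napsa encodes napsin A, an aspartic protease that takes part in trimming the precursors of surfactant proteins B and C. It ranged from 501 to 847 CPM after sham (median 648) and from 354 to 767 CPM after Glenn surgery (median 433). Its log2 change was -0.45 (SE 0.09, edgeR adjusted p 0.000246). Lamp3, a membrane protein of lamellar bodies, ranged from 655 to 1304 CPM (median 804) after sham and from 444 to 1054 CPM (median 604) after Glenn surgery. Abca3 pumps phospholipid into lamellar bodies and ranged from 330 to 710 CPM (median 533) after sham and from 291 to 645 CPM (median 396) after Glenn surgery. The log2 changes were -0.43 for Lamp3 (SE 0.12, edgeR adjusted p 0.00506) and -0.36 for Abca3 (SE 0.11, edgeR adjusted p 0.0089). Slc34a2, a sodium-phosphate transporter of the apical membrane, ranged from 2155 to 3828 CPM (median 3047) after sham and from 1364 to 3433 CPM (median 1855) after Glenn surgery, and its log2 change was -0.49 (SE 0.12, edgeR adjusted p 0.00121). In these 4 genes the lower Glenn medians came with upper ends that stayed inside the sham range.

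Lyz2 encodes lysozyme, which rodent type 2 cells make and which macrophages also make. Lyz2 held 24447, 21325, 14486, 16571 and 12998 CPM in sham control and 10795, 15371, 18846, 8980 and 14983 CPM in Glenn control. It held 20291, 22712, 19591, 15578 and 14021 CPM in sham deficient and 13609, 8030, 10296, 11734 and 11848 CPM in Glenn deficient. It held 16500, 15595, 20344, 20601 and 21460 CPM in sham excess and 12279, 14422, 14060, 9436 and 10421 CPM in Glenn excess. Glenn and sham were apart on the deficient and excess diets and overlapped on the control diet. Its fall was 0.56 on the log2 scale (SE 0.11, edgeR adjusted p 0.000131). Macrophage markers (8 listed, 7 tested) summed to 21.2 to 59.3 CPM after sham and 31.1 to 69.1 CPM after Glenn surgery, with none at 0 in every library. Of the 7, 2 rose (Mrc1, from 6.43 ± 1.49 to 12.2 ± 2.87 CPM, and Csf1r, from 18.0 ± 6.98 to 31.0 ± 10.04 CPM), 1 fell (Cd68, from 6.19 ± 1.75 to 3.62 ± 0.860 CPM; SD, n = 15 each) and 4 did not pass the test.

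Etv5 encodes an ETS-family transcription factor that acts below FGF signalling and helps keep type 2 cells in their state. It ranged from 108 to 178 CPM after sham (median 141) and from 76.8 to 165 CPM after Glenn surgery (median 103), and fell by 0.37 (SE 0.09, edgeR adjusted p 0.00107) on the log2 scale. Of 10 other genes of FGF receptor and ETV feedback, 4 rose, 3 fell and 3 did not pass the test, with a median log2 change of 0.13. Etv4, a close relative of Etv5, rose from 2.37 ± 0.715 to 9.05 ± 1.99 CPM (SD, n = 15 each). That log2 change was 1.93 (SE 0.14, edgeR adjusted p 8.56e-13). Spry1, a feedback inhibitor, rose from 156 ± 14.3 to 416 ± 96.7 CPM, while Fgfr2, the receptor on lung epithelium, fell from 174 ± 34.8 to 123 ± 33.6 CPM (SD, n = 15 each). In this contrast 24.7% of all genes were lower and 48.2% changed in either direction, so the counts of this list are given as a description.

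**Figure D2:**
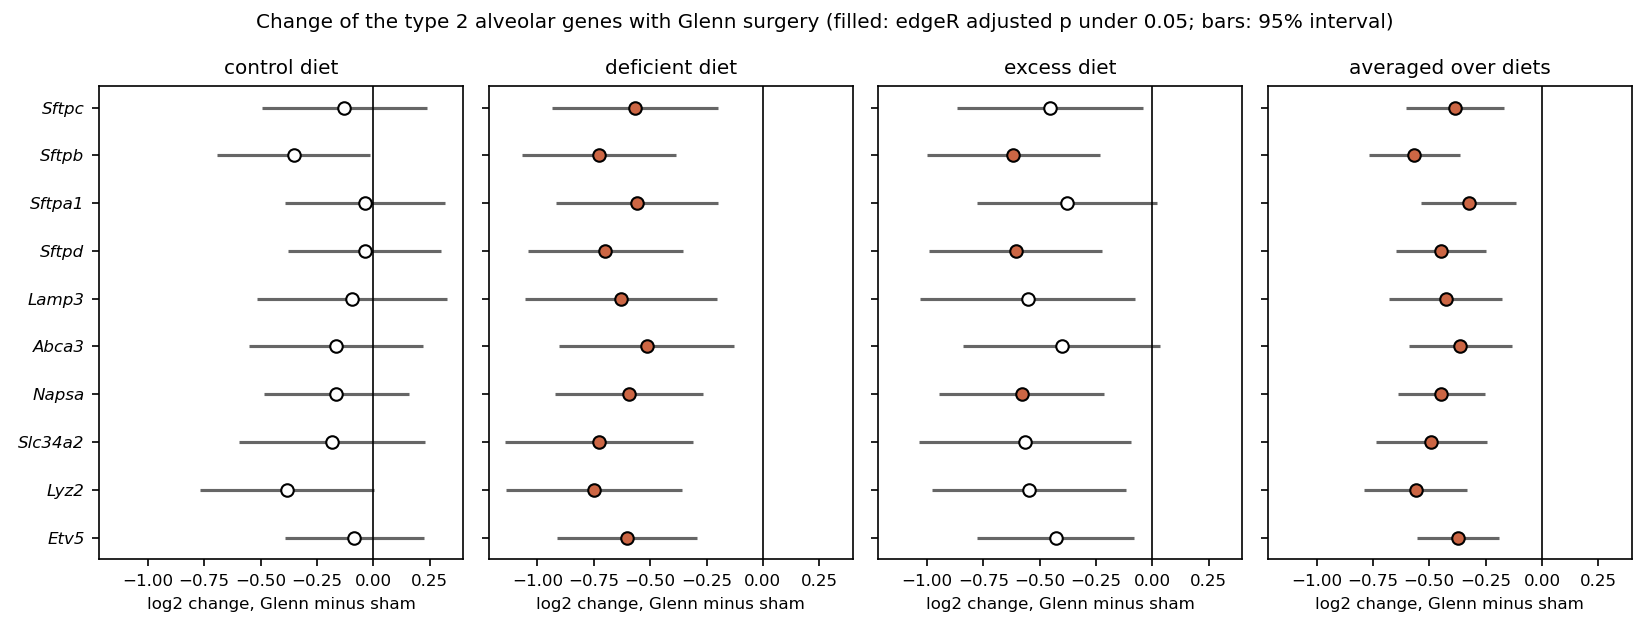
Log2 change of each of the 10 genes with Glenn surgery (horizontal axis, Glenn minus sham) on each diet and averaged over diets, with 95% intervals as bars. Filled points passed the edgeR test (adjusted p under 0.05): 0 on the control diet, 10 on the deficient diet, 3 on the excess diet and 10 on average.

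Diet by diet, different numbers of the 10 genes passed the test. On the control diet 0 of the 10 genes passed the edgeR test, where 13.1% of all genes were lower, and 1 of 10 (Sftpb) was lower at an unadjusted p under 0.05 (18.6% of all genes). All 10 changes were below 0 on that diet (50.9% of all genes were), from -0.04 for Sftpd to -0.38 for Lyz2 (95% interval -0.77 to 0.01, edgeR adjusted p 0.147), so a fall of the size seen on the other diets is inside some of these intervals. That sign did not hold for 5 of the genes in every setting. Without sham control replicate 1, the changes of Sftpc (0.02), Sftpa1 (0.08), Sftpd (0.07), Lamp3 (0.10) and Etv5 (0.03) were above 0. Without Glenn control replicate 1 those of Sftpa1, Sftpd and Lamp3 were above 0, and without Glenn control replicate 4 those of Etv5 as well. In all, 419 of 440 values under the other settings were below 0 on the control diet. On the deficient diet all 10 genes fell, where 13.7% of all genes were lower, from -0.52 for Abca3 (SE 0.19, edgeR adjusted p 0.0421) to -0.75 for Lyz2 (SE 0.19, edgeR adjusted p 0.00354). On the excess diet 3 of 10 fell, where 10.4% of all genes were lower, namely Sftpb (-0.62, edgeR adjusted p 0.0168), Sftpd (-0.61, 0.0187) and Napsa (-0.58, 0.018). The other 7 lay between -0.38 and -0.57 with adjusted p from 0.0614 to 0.19, and 8 of 10 were lower at an unadjusted p under 0.05 (16.1% of all genes).

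Glenn lay below sham with no overlap for 6 genes on the deficient diet (Sftpc, Sftpb, Sftpd, Napsa, Slc34a2 and Lyz2; 9.59% of all genes), for 4 on the excess diet (Sftpb, Sftpd, Napsa and Lyz2; 7.75%) and for 0 on the control diet (9.41%). Whether the Glenn change differed between diets was tested as an interaction, and 0 of the 10 passed (0.00618% of all genes did). The smallest interaction p was that of Sftpd (p 0.0185 by edgeR, adjusted p 0.763), so the fall on the deficient diet is not shown to differ from that on the control diet. All 30 leave-one-out fits kept 10 calls in the averaged contrast. On the deficient diet the RT1-CE16-high libraries are the series B libraries (sham replicates 3 to 5, Glenn replicates 4 and 5) and the RT1-CE16-low libraries are those of series A, so the split by either gives the same samples and is no second result. In the high, series B libraries the changes ran from -0.57 (Slc34a2) to -0.25 (Abca3), and in the low, series A libraries from -1.01 (Lyz2) to -0.73 (Sftpa1). The fits differ in the libraries of the other diets they hold. Of the 10 genes, 0 passed in the fit to all RT1-CE16-high libraries and 1 (Sftpb) in that to series B, while 8 passed in the fit to RT1-CE16-low libraries and 7 in that to series A. The share of all genes called in these fits is not given here, so the counts are a description and no result about the 10 genes.

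In Glenn control the coefficient of variation of the CPM was between 22.6% (Etv5) and 31.3% (Slc34a2), the widest of the 6 groups for each of the 10 genes except Lamp3 (28.3%, against 29.7% in sham control). The mean log2 deviation of the 10 genes from the Glenn control mean was -0.45 in replicate 1 and -0.40 in replicate 4, with 0 of 10 genes above the mean in either. It was 0.46 in replicate 3 and 0.29 in replicate 5, with all 10 above, and 0.10 in replicate 2. In sham control, replicate 1 stood 0.45 above with all 10 genes. Many libraries of the other groups also had 0 or all 10 genes above their group mean. Examples are sham excess replicate 1 and Glenn deficient replicate 2 with 0, and sham deficient replicate 2 and Glenn deficient replicate 1 with 10. The most mixed libraries were sham control replicate 2 with 3 of the 10 genes above the group mean and Glenn excess replicate 4 with 4. In sham deficient replicate 1 and Glenn deficient replicate 5 it was 7.

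Vitamin A in the diet changed none of the 10 genes past the threshold in any of 6 contrasts. After sham surgery, deficient minus control (0% of all genes called), excess minus control (0.241%) and excess minus deficient (0.0124%) gave changes between -0.12 and 0.13, with 0 of the 10 genes at an unadjusted p under 0.05 (5.22%, 11.1% and 5.28% of all genes). Sftpc, for example, was at 26118 ± 6405, 25176 ± 4561 and 25945 ± 3626 CPM on the control, deficient and excess diets (SD, n = 5 each). Its intervals ran from -0.42 to 0.39 for deficient and -0.38 to 0.36 for excess against control, and changes of that size cannot be seen with these numbers. After Glenn surgery, Sftpc was at 23890 ± 7357, 17096 ± 2031 and 18336 ± 3204 CPM on the same diets (SD, n = 5 each). Deficient minus control (0.00618% of all genes called) was below 0 for all 10 genes (46.3% of all genes were), from -0.59 for Sftpd (p 0.00253 by edgeR, adjusted p 0.271) to -0.24 for Lyz2, with 7 at an unadjusted p under 0.05 (4.48% of all genes were lower by that rule). Excess minus control (1.47%) was below 0 for all 10 too (46.6% of all genes were), from -0.45 for Sftpd (edgeR adjusted p 0.245) to -0.09 for Lyz2, with 3 at an unadjusted p under 0.05 (6.47% of all genes). Excess minus deficient (0%) lay between 0.03 and 0.24. The first 2 of these contrasts share the Glenn control libraries, and with a general epithelial score as covariate all 10 excess-minus-control changes after Glenn surgery were above 0.

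Further type 2 markers and genes of surfactant lipid synthesis were read from lists. Their counts stand against 24.7% of all genes lower and 48.2% changed in either direction in the averaged contrast. Of 12 further type 2 markers tested, 6 fell, 2 rose and 4 did not pass the test, with a median log2 change of -0.29. Acoxl fell from 55.5 ± 10.5 to 35.5 ± 9.71 CPM and Ppp1r14c from 89.3 ± 18.1 to 65.8 ± 11.99 CPM (SD, n = 15 each). In the other direction, Slc6a14, an amino acid transporter, rose from 65.8 ± 16.9 to 119 ± 35.2 CPM, and Cldn18, a tight-junction protein that type 1 cells make as well, rose from 97.8 ± 16.5 to 135 ± 28.0 CPM (SD, n = 15 each). Of 12 genes of surfactant lipid synthesis, 8 fell, 1 rose and 3 did not pass the test (median -0.29). Among them Gpam, the acyltransferase that opens glycerolipid synthesis, fell from 128 ± 16.2 to 91.5 ± 12.4 CPM (log2 change -0.49, SE 0.07, edgeR adjusted p 7.55e-07), and Acaca, which makes malonyl-CoA for fatty acids, from 29.2 ± 5.38 to 21.2 ± 4.28 CPM (SD, n = 15 each).

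Genes of surfactant processing, secretion and uptake went both ways, with 4 higher, 4 lower and 4 not past the test among 12 (24.7% of all genes were lower and 48.2% changed in either direction). Csf2rb, a receptor chain for GM-CSF that leukocytes and other cells carry, rose from 2.35 ± 0.937 to 15.7 ± 5.11 CPM. P2ry2, an ATP receptor that triggers surfactant secretion, fell from 58.3 ± 9.05 to 36.7 ± 8.03 CPM, and Adgrf5, an adhesion receptor of type 2 and endothelial cells that limits surfactant, from 1156 ± 113 to 787 ± 98.5 CPM (SD, n = 15 each). Lung epithelial transcription factors gave 0 higher, 2 lower (Ehf and Grhl2) and 8 not past the test. Nkx2-1 was among the 8, with means of 137 CPM (sham) and 144 CPM (Glenn) (log2 change 0.03, 95% interval -0.16 to 0.22, edgeR adjusted p 0.821). It was singled out after its values were seen, because its motif was searched above.

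**Figure D3:**
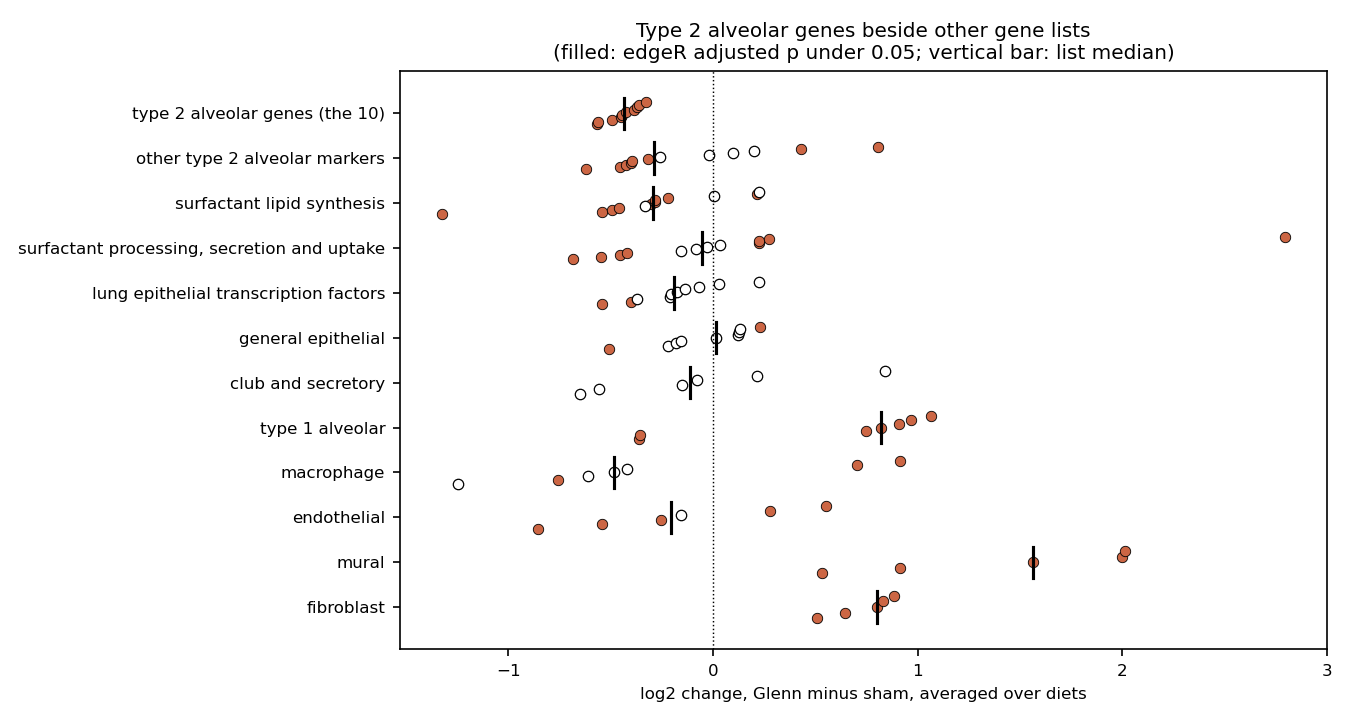
Log2 change with Glenn surgery averaged over diets (horizontal axis) for the 10 genes and for 11 other gene lists (rows). Each point is a gene, filled where it passed the edgeR test (adjusted p under 0.05), and the vertical bar is the list median; the median is -0.44 for the 10 genes, 0.01 for general epithelial genes and 0.82 for type 1 alveolar genes.

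General epithelial genes had a median change near 0. Of 9 general epithelial genes, 1 fell (Cldn3, from 68.7 ± 13.9 to 48.4 ± 11.4 CPM; SD, n = 15 each), 1 rose (Prss8) and 7 did not pass the test, with a median of 0.01 on the log2 scale. Their summed level was 584 to 934 CPM after sham (median 776) and 475 to 1106 CPM after Glenn surgery (median 768), while the 10 type 2 genes summed to 51630 to 89265 CPM (median 66404) and 34804 to 79798 CPM (median 42418). Epcam was at 129 ± 18.5 and 146 ± 32.9 CPM (SD, n = 15 each), a difference of 0.13 on the log2 scale (95% interval -0.03 to 0.29, edgeR adjusted p 0.184). Of 7 type 1 alveolar genes, which mark the flat gas-exchange cells, 5 rose and 2 fell. Ager rose from 361 ± 68.4 to 658 ± 189 CPM and Pdpn from 77.0 ± 16.3 to 156 ± 41.6 CPM (SD, n = 15 each), whereas Hopx and Clic5, named because they are the 2 that fell, had log2 changes of -0.36 each. Of 6 club and secretory genes, 0 passed the test in edgeR, 0 were at an unadjusted p under 0.05 and the smallest adjusted p was 0.279. Beside these counts stand 24.7% of all genes lower and 48.2% changed in either direction.

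Markers of other cells moved with the surgery as well. All 5 mural genes rose (Myh11, the smooth muscle myosin, from 57.8 ± 12.6 to 230 ± 116 CPM), and so did all 5 fibroblast genes (Col1a1 from 167 ± 46.9 to 314 ± 98.3 CPM; SD, n = 15 each). Among 6 endothelial genes 2 rose and 3 fell. Mitochondrial transcripts were 0.5003% to 0.739% of counts after sham and 0.558% to 0.869% after Glenn surgery. The part of these shifts in the fall of the type 2 genes was not tested. A separate fit had a general epithelial score as a covariate, which does not measure the shifts of the other cell markers. The score was the mean log2 level of Epcam, Cdh1, Cldn3, Cldn7, Esrp1 and Prss8, of which Cldn3 fell and Prss8 rose with the surgery. In that fit all 10 genes stayed lower in the averaged contrast, from -0.35 for Sftpa1 (edgeR adjusted p 0.000559) to -0.59 for Sftpb (edgeR adjusted p 3.18e-08). On the control diet 5 of the 10 then fell (Sftpb, Abca3, Napsa, Slc34a2 and Lyz2), led by Sftpb and Lyz2 at -0.55 each (edgeR adjusted p 0.0011 and 0.0148). The 13.1% of all genes lower on that diet belongs to the main fit. The share in the fit with the score is not given here, so the 5 calls are a description.

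Whether the 10 genes fell by the same amount was read from each gene's count as a percent of the Sftpc count of its library, a measure that does not depend on library depth or scaling. The measure compares libraries for 1 gene and not genes with each other. Sftpb was 11.4% ± 0.473 of Sftpc after sham and 10.1% ± 0.797 after Glenn surgery (SD, n = 15 each). It ran from 10.6% to 12.2% after sham and from 8.65% to 11.6% after Glenn surgery, with 13 of 15 Glenn libraries below the sham median. Lyz2 was 71.7% ± 7.39 and 63.1% ± 7.51 (SD, n = 15 each), with 12 of 15 Glenn libraries below the sham median. The ratios varied far less between libraries than the levels: over all 30 libraries the coefficient of variation of the ratio was 5.18% for Napsa and 12.7% for Lyz2, the extremes of the 9 genes, against 24.7% and 28.8% for their CPM.

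The change of the ratio was tested by shuffling surgery labels within diets (100000 resamples, two-sided, adjusted over all 16170 other genes, a test chosen after seeing the data). Of the 9 genes, 3 fell relative to Sftpc, where 3.64% of all genes were lower and 60.6% changed in either direction by that rule. Sftpc itself fell with the surgery, so a gene that did not change rises in this ratio. These shares thus depend on the choice of Sftpc and are no neutral background for the 9 genes. Sftpb fell by 0.17 on the log2 scale (SE 0.04, permutation p 3e-05, adjusted p 0.000193) and Lyz2 fell by 0.19 (SE 0.06, permutation p 0.00186, adjusted p 0.00505). Slc34a2 fell by 0.11 (SE 0.05, permutation p 0.0272, adjusted p 0.0458), a call that was lost in 18 of 30 fits leaving out 1 library. Sftpb and Lyz2 were below their sham ratio on each diet, with log2 changes of -0.22, -0.16 and -0.14 for Sftpb and -0.24, -0.18 and -0.14 for Lyz2 on the control, deficient and excess diets. The other 6 genes lay between -0.07 (Sftpd) and 0.05 (Sftpa1) relative to Sftpc, with adjusted permutation p from 0.0745 to 0.694. With the difference between series subtracted first, Napsa passed as well (-0.06, adjusted permutation p 0.0481), which made 4 genes lower relative to Sftpc. Within series A alone only Sftpb passed (-0.21, adjusted permutation p 0.00106), and Lyz2 did not (-0.16, 0.0748). An edgeR fit with libraries scaled to Sftpc, in which the spread is estimated jointly with all other genes, called 0 of the 9 (Sftpb -0.18, 95% interval -0.39 to 0.04, adjusted p 0.153).

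**Figure D4:**
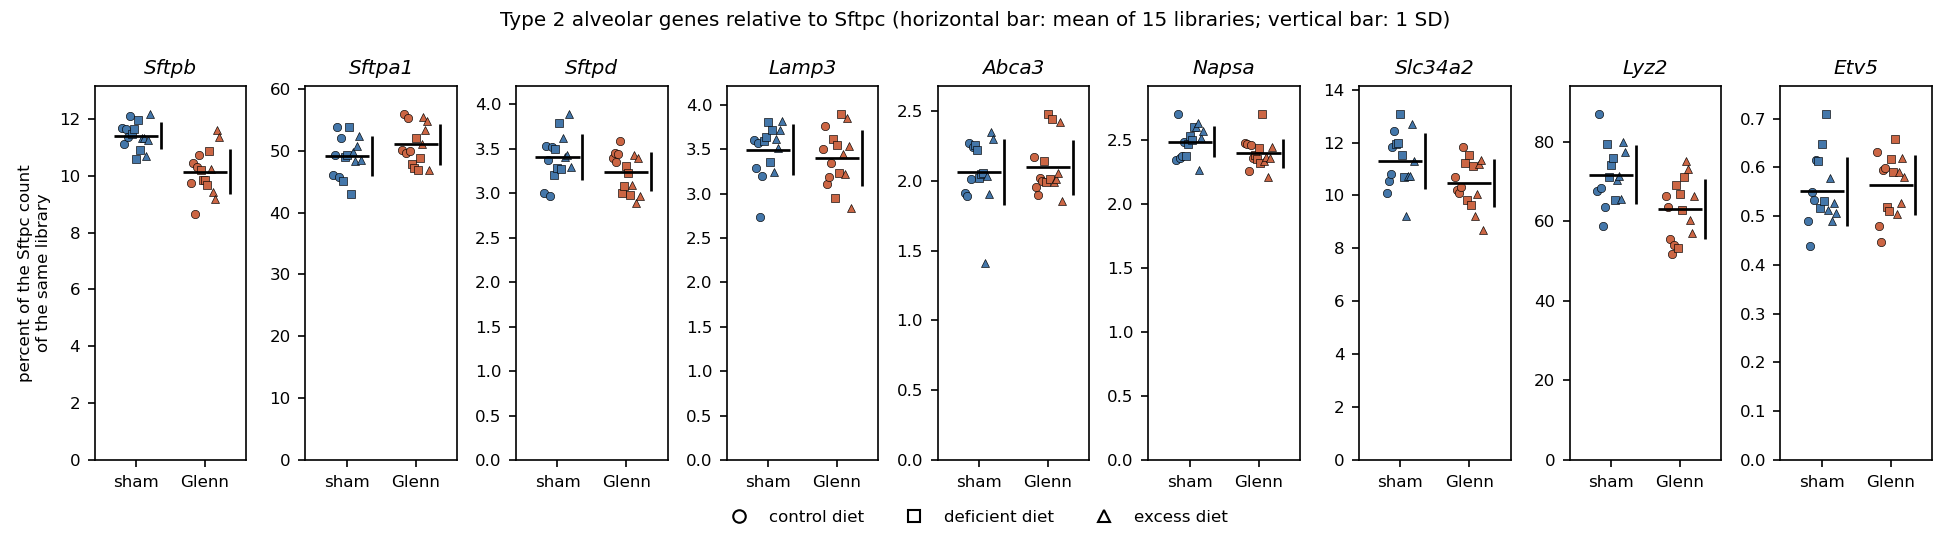
Count of each of 9 type 2 alveolar genes as a percent of the Sftpc count of the same library (vertical axis, from 0) after sham and Glenn surgery, with diet by marker shape. The horizontal bar is the mean of 15 libraries and the vertical bar 1 SD; Sftpb drops from 11.4% to 10.1% and Lyz2 from 71.7% to 63.1%, while the means of Etv5, Abca3 and Sftpa1 are slightly higher after Glenn surgery.

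Within groups, the genes rose and fell from library to library together. After subtracting each group's mean from log2(CPM + 1), the 45 pairs among the 10 genes had Pearson correlations from 0.64 to 0.97 over the 30 libraries (median 0.88). Ranked by their correlation with Sftpc among the 13478 genes that averaged 1 CPM or more, Napsa was the first (Pearson r 0.97, Spearman rho 0.95), Sftpa1 3, Sftpd 4, Sftpb 6, Lamp3 9 and Slc34a2 11. Lyz2 ranked 32 (Pearson r 0.87), Abca3 39 (0.86) and Etv5 69 (0.82). For Napsa the permutation p (shuffling within groups) was 1e-05 for both coefficients, the smallest 100000 resamples can give, with an adjusted p of 0.00139 for r and 0.00136 for rho over 13478 genes. Without the 2 libraries farthest from the median of Sftpc, Glenn control replicate 3 and sham control replicate 1, the r of Napsa was 0.96, that of Sftpb 0.94 and that of Etv5 0.79. Within series A and series B, r was 0.98 and 0.94 for Napsa, 0.97 and 0.89 for Sftpb and 0.84 and 0.79 for Etv5.

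The 8 genes outside the 10 whose pattern was most like that of Sftpc over the 30 libraries were Cxcl17 (r 0.95), Npc2 (0.94), Muc1 (0.93), Dram1 (0.93), Tmem163 (0.92), Stard10 (0.92), Tuba1c (ENSRNOG00000021438, 0.92) and Kcne2 (0.91). Each had a permutation p of 1e-05, and an adjusted p of 0.00139. Epcam and Nkx2-1, epithelial genes outside the 10, had lower coefficients than these 8, a difference that was not tested. Epcam had r 0.55 and rho 0.63 (permutation p 0.0023 and 0.00079, adjusted p 0.059 and 0.0286), and within sham and within Glenn libraries r was 0.87 and 0.33. The r of Epcam was 0.57 in series A and 0.75 in series B, and 0.57 without the 2 farthest libraries. Nkx2-1 had r 0.54 and rho 0.63 (permutation p 0.00292 and 0.00067, adjusted p 0.0675 and 0.0261), with r 0.53 in series A, 0.86 in series B and 0.53 without those 2 libraries. Ager, the type 1 gene, had r -0.04 and rho 0.05 (permutation p 0.899 and 0.816). Cdh5 ran against Sftpc, with r -0.73 and rho -0.72 (permutation p 0.00042 and 0.00016, adjusted p 0.0176 and 0.00887). For Cdh5 r was -0.77 in series A, -0.60 in series B and -0.68 without those 2 libraries. Within sham and within Glenn libraries it was -0.47 and -0.89. Pecam1, the other endothelial reference gene, had r -0.56 and rho -0.57 and did not pass (permutation p 0.00337 and 0.00373, adjusted p 0.0746 and 0.0784). Before scaling by TMM factors, all CPM values of a library share 1 fixed total.

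**Figure D5:**
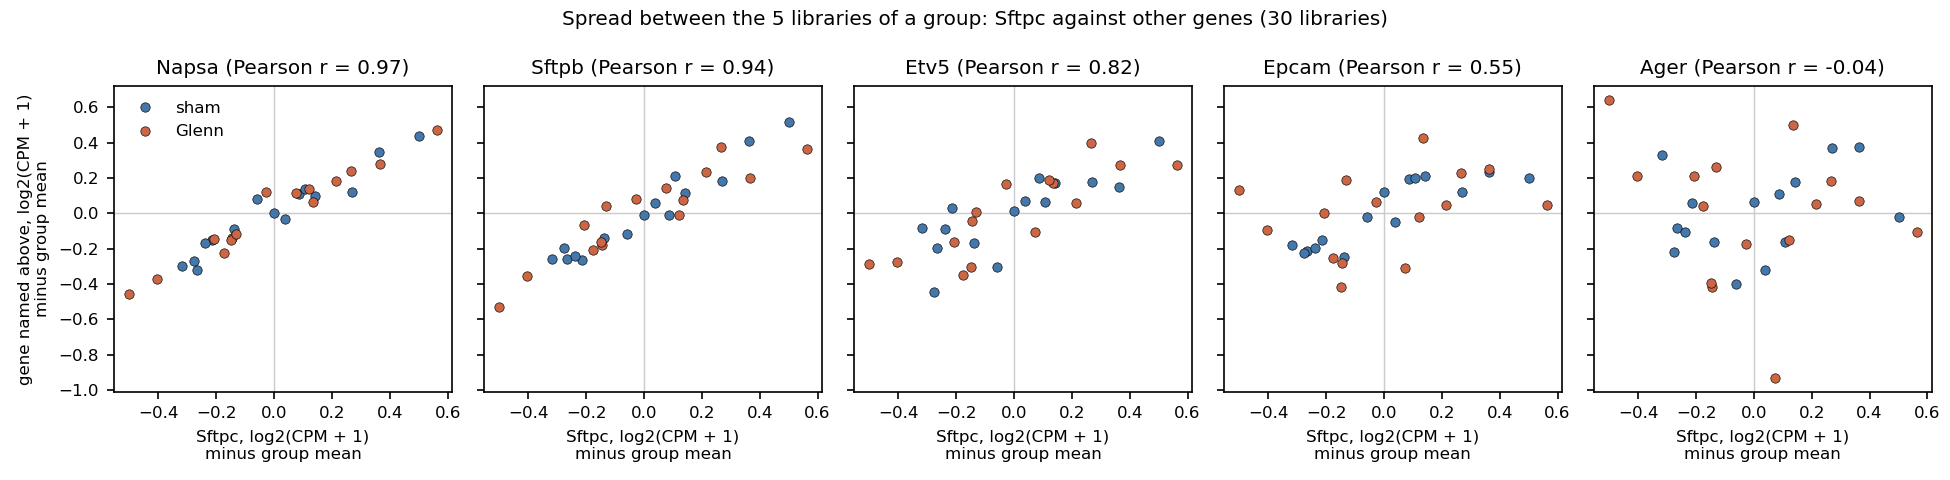
Deviation of Napsa, Sftpb, Etv5, Epcam and Ager from their group mean (vertical axis, log2(CPM + 1)) against that of Sftpc (horizontal axis, same scale) in the 30 libraries, coloured by surgery. The points lie close to a line for Napsa (r 0.97) and Sftpb (0.94), looser for Etv5 (0.82) and Epcam (0.55), and without slope for Ager (-0.04).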

How the data were processed

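RNA of CD31-sorted rat lung cells was measured in 30 libraries, 6 groups of 5. The authors deposited 1 table of estimated counts per gene. The submitters' processing notes name FastQC, Trim Galore, Picard, STAR and Salmon and the build mRatBN7.2 (rn7), without versions or settings, so strandedness is not given in the sources used here. Of the deposited values 13.6% were not whole numbers, and 5 of the 10 genes had such values, since reads shared between similar genes are split by estimate. All 30 sample columns were used and 0 were left out.

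The estimated counts were rounded to integers, and filterByExpr in edgeR 4.0.16 (at least 10 counts, at least 15 in total) kept 16171 genes. TMM factors lay between 0.94 and 1.06. All 30 libraries entered a single quasi-likelihood model (estimateDisp, glmQLFit with robust = TRUE, glmQLFTest) of 6 group means plus a term for series, which separates the 2 ranges of library numbers in the labels (A and B). Benjamini-Hochberg adjustment ran over all 16171 genes, and an adjusted p under 0.05 was called. The SE was taken as the absolute log2 change over the root of the F statistic.

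The members and gene lists were chosen with earlier results of these data known. The text names the 10 genes, 4 reference genes of other compartments (Epcam, Pecam1, Cdh5 and Ptprc), the 8 other genes most like Sftpc and, of each list, at most 4 called genes with the smallest adjusted p; genes outside that rule are marked as chosen after their values were seen. Correlations used log2(CPM + 1) minus the group mean with 100000 shuffles within groups. Ratios to Sftpc used counts plus 0.5. Promoter windows came from RefSeq's GRCr8 table, a build other than that of the counts, so no measured value was placed on its coordinates.

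Replicate numbers carry no stated pairing, so the main fit has no block. Libraries of a group differed beyond sampling noise (60 pairs, chi-square per degree of freedom 20.1 to 119; Spearman correlations 0.981 to 0.993). On simulated counts, edgeR recovered 168 of 200 genes changed 2-fold in the averaged contrast with 10 false calls among 16171 genes. The numbers were 165 with 10 for limma voom (limma 3.58.1) and 172 with 20 for DESeq2 1.42.0. The simulated counts held no diet or series effect. In the data 48.2% of genes were called in that contrast, and the 10 genes fell by less than 2-fold. The simulation therefore does not give the power for the 10 genes. Alternatives were series A by itself, dropping the series term, scaling by DESeq2 size factors or by library totals, DESeq2, limma voom, no filter, a replicate block, the RT1-CE16 level as a term, RT1-CE16-low libraries alone, only the groups compared, a general epithelial score, and leaving out each library. RT1-CE16-high libraries alone, series B alone and sex as a term were added after seeing the data, as were the ratios to Sftpc. Libraries over 100 CPM of RT1-CE16 were called high. Sex was inferred from the level of Ddx3y, with libraries over 10 CPM taken as male (13) and the others as female (17). Glenn excess held 3 male libraries and each other group 2. R 4.3.3 and Python 3.11.15 were used.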

Additional observations from a re-analysis of the deposited data

Results flagged for a closer look

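In 1 of 60 sets of 5 libraries, where chance alone gives about 3, a library lay far from the other 4. Lamp3 in sham control replicate 1 was at 1304 CPM against 655 to 804 CPM in the other 4 libraries, and the gap to the nearest took 0.77 of the whole range. All 10 type 2 alveolar genes were above their group mean in that library.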

How the results depend on the processing

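Averaged over diets, 10 of 10 genes were called lower under all 12 other settings and all 30 fits leaving out 1 library. Log2 changes ran from -0.76 to -0.25. The adjusted p went up to 0.0424, by edgeR or, in the settings of that name, by DESeq2 or limma voom. The calls within single diets depended on the libraries used and on the terms of the model. On the excess diet the count of 3 was 7 with no series term, 0 in series A alone, 1 in RT1-CE16-low libraries alone, and 0 (without Glenn excess replicate 1) to 8 (without Glenn excess replicate 3) with 1 library left out. On the deficient diet the count of 10 was 0 in RT1-CE16-high libraries alone, 1 in series B alone (the same libraries on that diet), and 6 (without sham deficient replicate 2) to 10 with 1 library left out. On the control diet the count of 0 was 5 with the general epithelial score as a covariate and 0 in every fit leaving out 1 library. The count of 3 genes lower relative to Sftpc was 1 in series A alone, 4 (Napsa being the fourth) with the series difference subtracted, and 2 to 4 with 1 library left out. It was 0 in an edgeR fit with libraries scaled to Sftpc (adjusted p from 0.153 to 0.876 over the 9 genes). Why these counts move was not tested. The subsets hold fewer libraries, and the effect of that was not tested either. The share of all genes called under each setting is not given here, so the counts are a description.

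Signs that turned by more than 1 SE all belong to contrasts between diets, in which no gene was called. With the epithelial score, excess minus control after Glenn surgery became 0.25 (Sftpc), 0.24 (Sftpb), 0.19 (Sftpa1), 0.070 (Sftpd), 0.24 (Lamp3), 0.37 (Abca3), 0.10 (Napsa), 0.32 (Slc34a2), 0.39 (Lyz2) and 0.15 (Etv5). Deficient minus control became 0.15 (Abca3), 0.052 (Slc34a2) and 0.073 (Lyz2) after Glenn and 0.24 (Sftpc), 0.17 (Sftpb), 0.19 (Sftpa1) and 0.21 (Napsa) after sham surgery. In series A alone, as with only the groups compared, Sftpb after sham surgery was 0.14 for deficient minus control and -0.19 for excess minus deficient. In RT1-CE16-low libraries after sham surgery, deficient minus control was -0.087 for Lyz2, excess minus control was -0.15 (Sftpa1), -0.096 (Sftpd), -0.18 (Lamp3), -0.22 (Napsa) and -0.28 (Lyz2), and excess minus deficient was -0.18 for Sftpb. Excess minus deficient after Glenn surgery was -0.054 for Lyz2 in RT1-CE16-high libraries and in series B alone. A further 192 sign differences, each under 1 SE, were among values that passed the threshold in neither fit. They include the change with Glenn surgery on the control diet, which reached 0.02 (Sftpc), 0.08 (Sftpa1), 0.09 (Sftpd), 0.10 (Lamp3) and 0.05 (Etv5).

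With the replicate number as a block, the counts stayed at 0, 10 and 3 on the control, deficient and excess diets, at 10 on average and at 0 in the diet contrasts and the interaction. Deviations of libraries with the same number had correlations from -0.25 to 0.26, and all 5 pairs were over 0.1 in 1 of 9 contrasts, deficient against control after sham surgery. With only the groups compared, the averaged contrast and the interaction hold the same libraries and give no further value. RT1-CE16-high libraries gave no value for contrasts with sham excess, and series B gave values only for the deficient diet and for excess minus deficient after Glenn surgery. Depth did not limit detection of the 10 genes, each of which held at least 76.8 CPM in every library, while groups of 5 limit what can be seen between diets.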

Other observations

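Marker lists of cells not described above gave these values in the averaged contrast. Of 5 ciliated-cell genes, 4 rose and 1 fell. Foxj1, the ciliogenesis factor, rose from 2.08 ± 1.22 to 3.38 ± 1.17 CPM, and Tppp3, a tubulin-binding protein, fell from 351 ± 43.6 to 171 ± 18.6 CPM (SD, n = 15 each). Of 4 mesothelial and 4 lymphocyte genes tested 0 passed the edgeR test, and 0 were at an unadjusted p under 0.05. Of 3 erythroid and platelet genes, Pf4, a platelet chemokine, fell from 24.4 ± 11.1 to 15.7 ± 9.84 CPM (SD, n = 15 each; edgeR adjusted p 0.0106). The other two lay near or below 1 CPM, where Ppbp fell from 0.227 ± 0.195 to 0.0743 ± 0.0905 CPM and Alas2, an enzyme of heme synthesis in red cell precursors, rose from 0.110 ± 0.0968 to 0.951 ± 1.44 CPM (SD, n = 15 each). Of 3 neutrophil genes 1 fell, Csf3r, from 0.241 ± 0.341 to 0.0621 ± 0.0916 CPM (SD, n = 15 each; edgeR adjusted p 0.041). In this contrast 24.7% of all genes were lower and 48.2% changed in either direction.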
